A study of Arabidopsis thaliana with 12 samples.

Results

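The DOG1 family of Arabidopsis thaliana was followed through 12 RNA sequencing libraries of seedlings. It comprises DELAY OF GERMINATION 1 (DOG1, AT5G45830) and its relatives DOG1-LIKE 1 to 4, here DOGL1 (AT4G18660), DOGL2 (AT4G18680), DOGL3 (AT4G18690) and DOGL4 (AT4G18650). These 5 genes, of 27444 protein-coding genes on chromosomes 1 to 5, were chosen by name and position, with earlier results of these data known. Each group held 3 biological replicates of 14-day-old whole seedlings: the wild type (WT), a mutant of each of 2 genes (val1, val2) and their double mutant (val1 val2). Seeds had been kept 3 days in the cold, and plants grew at 22 °C in long days on sucrose medium; the labels name no accession or allele. VAL1 (AT2G30470) and VAL2 (AT4G32010) encode repressors of transcription with a plant B3 DNA-binding domain, so the groups ask what the loss of either repressor, or of both, does to transcript levels.

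DOG1 is a regulator of seed dormancy, the state in which a viable seed does not germinate under favourable conditions. Its transcript accumulates during seed maturation, and the protein binds clade A protein phosphatases 2C such as AHG1 and AHG3, which otherwise dampen abscisic acid (ABA) signalling. DOGL4 has been linked in Arabidopsis to the expression of seed reserve genes. The B3 repressors VAL1 and VAL2 are known to keep the embryonic programme, led by LEC1, FUS3 and ABI3, silent after germination, and DOG1 has been described among their targets.

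Levels are in FPKM, in which fragment counts are divided by transcript length and library depth; the authors listed them for loci assembled library by library. A gene's level was taken as the FPKM of its locus times the share of the annotated gene that the locus covered, and a gene without a locus was entered at 0. The libraries held 19164 to 20293 loci each, and the widths of the deposited confidence bounds imply about 9378000 to 12078000 fragments per library. Among loci of 500 to 3000 bases, the 1st percentile of FPKM lay between 0.589 and 0.806 in the 12 libraries, so lower levels were seldom listed and a 0 does not show that a transcript was absent. Between libraries of a group, the correlation of log2(FPKM + 1) across genes was 0.974 to 0.981 in WT, val1 and val2 and 0.925 to 0.968 in val1 val2.

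The mutated genes were examined first. The VAL1 level was 14.5, 17.7 and 17.3 FPKM in WT replicates 1 to 3 and 12.7, 5.18 and 5.08 FPKM in val1. It was 17.8, 15.2 and 16.4 FPKM in val2 and 13.2, 11.1 and 22.6 FPKM in val1 val2. In val1 replicates 2 and 3 and in val1 val2 replicates 1 and 2, a VAL1 locus began at position 12982815 of chromosome 2, and little or nothing was listed before it. The libraries labelled val1 replicate 1 and val1 val2 replicate 3 had 1 unbroken VAL1 locus over 92.9% of the gene, as WT had. VAL1 was also split into 2 loci in val2 replicate 1, so a split alone does not mark a VAL1 lesion. Against WT, VAL1 had a limma adjusted p of 0.0853 in val1 and 0.746 in val1 val2. VAL2 fell in val2 (9.74, 11.3 and 10.4 FPKM) and in val1 val2 (12.7, 13.2 and 12.6 FPKM) from 21.8, 22.0 and 17.7 FPKM in WT (limma, adjusted p = 0.00442 and 0.00211), and also in val1 (adjusted p = 0.0426). Its locus was cut short or split in val2 replicates 2 and 3 and in val1 val2 replicate 1, but unbroken in the libraries labelled val2 replicate 1 and val1 val2 replicates 2 and 3. The site of each lesion is not given by the labels, so an unbroken locus may or may not go against its label. Family values are also given without the libraries labelled val1 replicate 1 and val1 val2 replicate 3. No fit was made without the libraries whose VAL2 locus was unbroken, since only val1 val2 replicate 1 would be left of its group.

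The DOG1 level was 0 or near 1 FPKM in 9 libraries and 49.8 to 138 FPKM in the other 3. No DOG1 locus was listed in WT or in val2. In val1, replicate 1 had none, replicate 2 stood at 1.03 FPKM and replicate 3 at 0.931 FPKM. In val1 val2, DOG1 stood at 138, 105 and 49.8 FPKM in replicates 1, 2 and 3, a mean of 97.9 ± 44.8 FPKM (SD, n = 3). The val1 val2 libraries therefore lay above every other library, and the lowest of them was still above the highest val1 library by more than an order of magnitude. Among genes with a locus, DOG1 ranked 956 from the top of 17927 in replicate 1, 1210 of 17808 in replicate 2 and 2924 of 18000 in replicate 3.

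DOGL4 was listed in the val1 val2 libraries only. Its level was 27.8, 13.9 and 21.2 FPKM in replicates 1, 2 and 3, a mean of 21.0 ± 6.94 FPKM (SD, n = 3), and it was listed at 0 in all 9 other libraries. DOGL2 was also listed in val1 val2 only, at 10.3, 7.90 and 4.98 FPKM, a mean of 7.74 ± 2.68 FPKM (SD, n = 3). DOGL1 was low, with levels of 1.18, 0.948 and 0.629 FPKM in the 3 val1 val2 libraries and 0 elsewhere. Its val1 val2 mean was 0.919 ± 0.276 FPKM (SD, n = 3). Before scaling by the share of the gene covered, its loci there were listed at 2.14, 1.72 and 1.54 FPKM. No library had a locus for DOGL3.

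**Figure D1:**
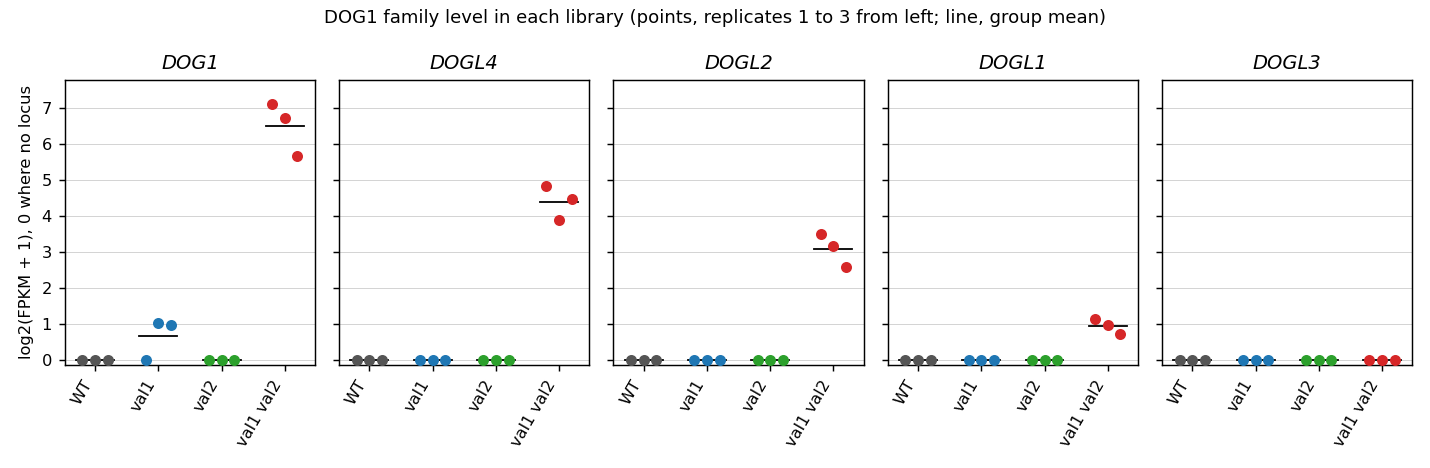
Level of each family member, as log2(FPKM + 1), in the 3 libraries of each genotype; points are libraries and lines group means, and a gene without a locus is drawn at 0. The val1 val2 points stand above all others for DOG1, DOGL4, DOGL2 and DOGL1, DOG1 also has points near 1 in 2 of 3 val1 libraries, and DOGL3 is at 0 throughout.

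The differences were tested with limma, a linear model with a moderated variance, on log2(FPKM + 1) over 17648 genes that reached 1 FPKM in at least 3 libraries, with Benjamini-Hochberg adjustment over all of them and a call at an adjusted p under 0.05. The 3 family members in this fit were DOG1, DOGL4 and DOGL2. DOGL4 and DOGL2 reached 1 FPKM only in val1 val2, and DOG1 there and in 1 val1 library, so members that passed the filter had to differ between groups and their number is no support. DOGL1 and DOGL3 did not pass.

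Between val1 val2 and WT, DOG1 differed by 6.51 on the log2(FPKM + 1) scale (SE 0.349, limma adjusted p = 1.04e-07), DOGL4 by 4.41 (SE 0.199, adjusted p = 2.63e-08) and DOGL2 by 3.08 (SE 0.197, adjusted p = 4.12e-07). Because WT is listed at 0, these sizes depend on the 1 FPKM added before taking logarithms, and no fold change is given. Groups entered at 0 show no spread, yet the fit pools the spread over all groups. For genes at 0 outside val1 val2 or nearly so, the SE thus understates the spread between val1 val2 libraries. Their p-values come out too small. All 3 members in the fit were called higher, where 24.7% of all genes were called higher and 34.2% lower. Against val1, DOG1 was higher by 5.85 (adjusted p = 2.69e-07), and all 3 were called higher beside 25.6% of all genes. Against val2, all 3 were again called higher, with adjusted p-values of 9.56e-08 for DOG1, 2.40e-08 for DOGL4 and 3.76e-07 for DOGL2, beside 25.1% of all genes. Without the libraries labelled val1 replicate 1 and val1 val2 replicate 3, and with 1 FPKM asked in 2 libraries, the differences from WT were 6.93 for DOG1, 4.37 for DOGL4 and 3.33 for DOGL2. Val1 val2 replicate 1, the one double-mutant library with both VAL loci cut short, held the highest level of all 4 listed members. A highest level in replicate 1 was common among genes called higher in val1 val2 than in WT. From highest to lowest, 47.2% of them had the order 1, 2, 3 and 12.6% the order 1, 3, 2. The part of genotype in this was not tested.

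Neither single mutant alone gave a family call. In val1 against WT the DOG1 difference was 0.66 on the log2(FPKM + 1) scale (limma adjusted p = 0.377), and 0 of 3 members in the fit were called, where 2.20% of all genes were called higher and 1.72% lower. In val2 against WT no member had a locus on either side, so 0 were called, beside 1.79% of all genes called higher and 2.67% lower. Val1 against val2 gave the same 0.66 for DOG1 (adjusted p = 0.344) and 0 calls, beside 3.73% of all genes called higher. When val1 replicate 1 and val1 val2 replicate 3 were left out, an alternative chosen after the data were seen, DOG1 in val1 against WT became 0.98 with a limma adjusted p of 0.0035 and was called. That choice dropped the only val1 library without a DOG1 locus, so the difference had to grow. WT and val2, entered at 0, add no spread to the pooled SE. The call is therefore no support for a DOG1 rise in val1. A p-value that misses the threshold in the full set does not show that val1 and WT were alike.

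The interaction, the val1 val2 change minus the val1 and val2 changes, was 5.85 for DOG1 (SE 0.494, limma adjusted p = 7.29e-06), 4.41 for DOGL4 (SE 0.281, adjusted p = 9.54e-07) and 3.08 for DOGL2 (SE 0.278, adjusted p = 1.15e-05). All 3 members in the fit were called higher in it, beside 21.3% of all genes. For DOGL4 and DOGL2, listed at 0 in WT, val1 and val2, these values repeat the difference from WT and are no separate test. For DOG1, listed at 0 in WT and val2, the value repeats the difference of val1 val2 from val1. For DOGL1, outside the fit, the exact two-sided permutation test of val1 val2 against WT gave p = 0.1, the smallest that 3 libraries against 3 allow. In the fit without a filter, the DOGL1 difference was 0.93 (limma adjusted p = 0.000106), and with the FPKM of its locus as listed it was 1.48 (adjusted p = 6.82e-06). DOGL1 entered both fits only through val1 val2, and the other groups, at 0, show no spread. These p-values thus come out too small and add no support to the permutation test.

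The low val1 signal at DOG1 came from few reads. In val1 replicate 2, the locus spanned chr5:18590032-18590585 and covered 26.5% of the gene, at a listed 3.87 FPKM with deposited bounds of 1.82 and 5.93 FPKM, which imply about 14.2 fragments. In val1 replicate 3, it spanned chr5:18589889-18591474 and covered 75.9% of the gene, at a listed 1.23 FPKM with bounds of 0.685 and 1.77 FPKM and about 20.5 implied fragments. Neither locus had a lower bound at 0, but at this depth a similar level in val1 replicate 1, WT or val2 could have gone unlisted.

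In val1 val2 the loci followed the annotated DOG1 gene almost end to end. They spanned chr5:18589414-18591478, chr5:18589447-18591495 and chr5:18589490-18591472 in replicates 1, 2 and 3 (TAIR10, the build in the submitters' processing notes) and covered 98.7%, 98.1% and 94.9% of the gene. The implied fragments were about 1514, 1164 and 707. The listed FPKM of the 3 loci had bounds that did not overlap, 133 to 148, 101 to 114 and 48.5 to 56.4 FPKM; these bounds cover the estimate within a library, not the spread between seedling samples.

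DOGL4 loci were also close to full length, with 98.3%, 94.4% and 99.3% of the gene covered at chr4:10263980-10265425, chr4:10264051-10265740 and chr4:10263963-10265428. They rested on about 257, 167 and 198 implied fragments. In val1 val2 replicate 2, a further locus at 1.33 FPKM (chr4:10259684-10265064) ran from the neighbouring MRH1 into DOGL4 and was counted to MRH1 alone. DOGL2 loci at chr4:10280938-10282027, chr4:10280941-10281892 and chr4:10280953-10281885 covered the annotated gene whole and went past it, with 65.0%, 74.4% and 75.9% of each locus inside the gene. They rested on about 161, 88.9 and 58.2 implied fragments.

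DOGL1 was the exception. Its loci covered 55.1%, 55.1% and 40.8% of the gene, at chr4:10273025-10274246, chr4:10272944-10274246 and chr4:10273391-10274048, and began before the lower end of the annotation. Only 28.0, 19.0 and 11 fragments were implied. The files carry no strand, so whether these reads belong to DOGL1 or to an unannotated or overlapping transcript cannot be told.

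**Figure D2:**
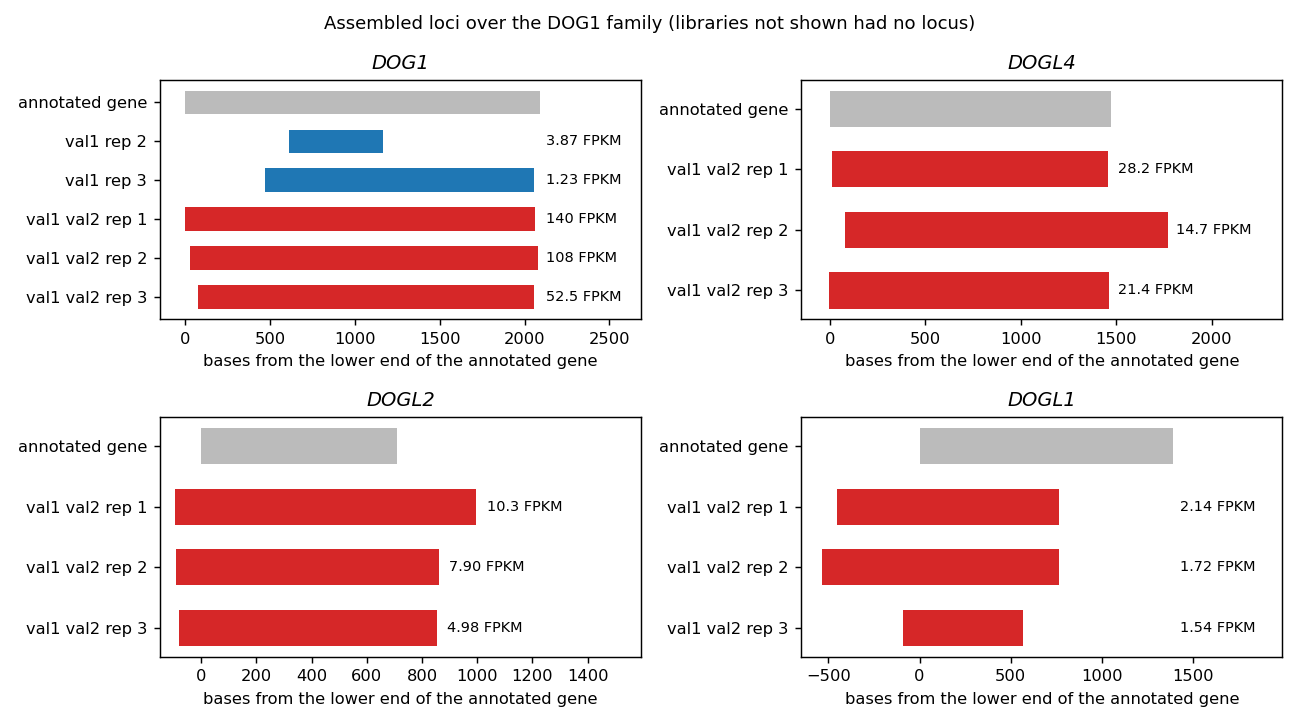
Extent of each assembled locus over DOG1, DOGL4, DOGL2 and DOGL1, in bases from the lower end of the annotated gene (grey), with the listed FPKM of the locus; libraries without a locus are not drawn. The val1 val2 loci (red) span nearly all of DOG1 and DOGL4 and run past DOGL2, while the val1 loci over DOG1 (blue) and those over DOGL1 cover parts of the gene.

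Within val1 val2 the family had a fixed order of levels: DOG1, then DOGL4, DOGL2 and DOGL1. Neighbours in this order did not overlap across the 3 libraries. The ratio of DOG1 to DOGL2 was 13.4, 13.3 and 10 in replicates 1, 2 and 3, and that of DOG1 to DOGL1 was 117, 111 and 79.2. The ratio of DOG1 to DOGL4 varied more, at 4.99, 7.60 and 2.35.

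The val1 val2 libraries did not order all members alike. DOG1 was 1.41, 1.08 and 0.509 times its group mean in replicates 1, 2 and 3, DOGL2 was 1.34, 1.02 and 0.644 times and DOGL1 was 1.28, 1.03 and 0.685 times. DOGL4 was 1.32, 0.663 and 1.01 times its mean, lowest in replicate 2 and not in replicate 3. The order of DOG1, DOGL2 and DOGL1 was common: of 4198 genes called higher in val1 val2 than in WT with a value in all 3 libraries, 47.2% had their highest level in replicate 1 and their lowest in replicate 3. The order of DOGL4 was found in 12.6% of them.

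The same libraries differed in seed and leaf markers. The summed FPKM of 11 seed and embryo markers was 57787, 48341 and 29875 in val1 val2 replicates 1, 2 and 3. That of 3 leaf markers was 1168, 1897 and 3817. Val1 val2 replicate 3, lowest in DOG1, DOGL2 and DOGL1, thus had the least seed marker RNA and the most leaf marker RNA of the group, and it is also the library with an unbroken VAL1 locus. The part of tissue make-up and of genotype in the DOG1 difference between these libraries was not tested.

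**Figure D3:**
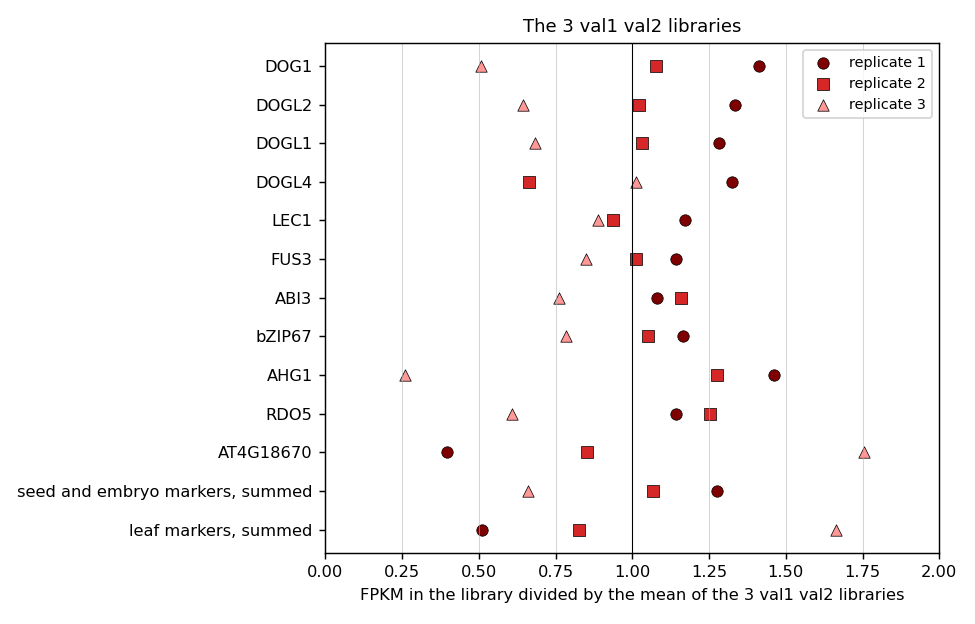
FPKM in each val1 val2 library divided by the mean of the 3 val1 val2 libraries, for family members, seed regulators, phosphatases, AT4G18670 and the summed seed and leaf markers. Replicate 3 is lowest for DOG1, DOGL2 and DOGL1, as for the seed markers, while DOGL4 is lowest in replicate 2 and the leaf markers and AT4G18670 are highest in replicate 3.

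In val1 val2, DOG1 rose beside a broad rise of seed transcripts. It was not called in val1 and had no locus in val2, although seed markers were called higher in both. Of 15 seed and embryo markers (storage proteins, oleosins, EM proteins and seed tonoplast channels), 15 rose in val1 val2 against WT, 12 in val1 and 6 in val2, beside 24.7%, 2.20% and 1.79% of all genes called higher. All 15 were listed at 0 in WT, so they entered the fit only through the mutants. Their sum over the 11 with a value in every library was 0 in WT, 70.5 to 78.3 FPKM in val1, 4.42 to 5.79 FPKM in val2 and 29875 to 57787 FPKM in val1 val2. Val1 replicate 1, without a DOG1 locus, had the lowest of the 3 val1 sums over these 11 markers, at 70.5 FPKM. Over all 15, of which val1 libraries lacked no value, its sum was the highest, at 156 FPKM beside 152 and 148 FPKM in replicates 2 and 3. The val1 mean of DOG1 was 0.667% of its val1 val2 mean, and for the 12 seed markers with a locus in all val1 libraries that share ran from 0.0762% to 1.55%, with a median of 0.113%. DOG1 itself lacked a locus in val1 replicate 1. The markers that also lacked one in some val1 library stood at 0% (EM1), 0.0328% (TIP3;1) and 1.63% (EM6).

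Leaf and root markers went the other way in val1 val2. Of 5 leaf markers 4 fell and of 4 root markers 4 fell, and 2 root markers fell in val2, beside 34.2% of all genes called lower in val1 val2 and 2.67% in val2. The root sum was 80.8 to 88.7 FPKM in WT, 66.8 to 108 in val1, 58.2 to 65.3 in val2 and 16.5 to 29.9 in val1 val2, and the sum of the 3 leaf markers with a value in every library was 8697 to 9990 FPKM in WT, 7685 to 7782 in val1, 10459 to 11788 in val2 and 1168 to 3817 in val1 val2. Of 5 reference genes, ACT2 and PP2AA3 fell and 3 were not called, with a sum of 1195 to 1501 FPKM in WT and 1033 to 1112 in val1 val2. RNA came from whole seedlings, so more cells of a type and more RNA per cell cannot be told apart, for DOG1 as for the markers.

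Phosphatases tied to DOG1 or to dormancy were measured beside it. Of 3 listed, 3 rose in val1 val2 against WT, beside 24.7% of all genes called higher, with a median difference of 2.16 on the log2(FPKM + 1) scale beside -0.14 for all genes. AHG1, a DOG1-bound phosphatase of seeds, was listed at 0 in WT, val1 and val2 and stood at 5.99, 5.23 and 1.07 FPKM in val1 val2 replicates 1, 2 and 3 (limma adjusted p = 0.000453). PP2CA, also called AHG3, was expressed in every library, at 27, 37.7 and 32.3 FPKM in WT and 96.6, 82.7 and 79.4 FPKM in val1 val2, a difference of 1.40 (adjusted p = 8.79e-06). RDO5, a phosphatase-like protein required for full dormancy, went from 0 in WT to 36.7, 40.3 and 19.5 FPKM (adjusted p = 2.17e-08). All 3, like DOG1, were lowest in val1 val2 replicate 3, and PP2CA varied little between those libraries. This was common among genes called higher in val1 val2 than in WT. The order from replicate 1 down to 3, as in AHG1 and PP2CA, was held by 47.2% of them. The order 2, 1, 3 of RDO5 was held by 14.0%. AHG1 and RDO5 passed the filter only through val1 val2 and so had to differ, which leaves PP2CA as the one call that the filter did not fix. None of the 3 was called in val1 or val2. The shares of all genes called were 2.20% higher and 1.72% lower in val1 and 1.79% higher and 2.67% lower in val2. AHG1 and RDO5, at 0 in WT, val1 and val2, could not have been called there.

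A list of 7 seed regulators held factors placed upstream of DOG1 and the seed ABA bZIP factors ABI5 and EEL. In the fit were 5, and 5 rose in val1 val2 against WT, with a median of 5.18, beside 24.7% of all genes called higher. FUS3, ABI3, bZIP67 and LEC1 passed the filter only through val1 val2 and so had to differ, and their calls are no support. FUS3, a B3 activator of the maturation programme, was listed at 0 in WT and stood at 89.9, 79.7 and 66.8 FPKM in val1 val2 (difference 6.31, limma adjusted p = 4.43e-11). ABI3, the B3 factor of ABA response in seeds, stood at 41.6, 44.6 and 29.3 FPKM (5.28, adjusted p = 7.30e-10). bZIP67, a factor reported to bind the DOG1 promoter, stood at 41.5, 37.6 and 27.9 FPKM (5.18, adjusted p = 6.01e-10), and LEC1, a CCAAT-binding subunit that works with it, at 18.7, 15 and 14.2 FPKM (4.08, adjusted p = 1.26e-09). ABI5, listed in WT at 2.97, 3.14 and 2.86 FPKM, rose to 18.9, 16.4 and 10 FPKM (1.97, adjusted p = 1.37e-05). The other 4 were listed at 0 in WT, val1 and val2, so the 2 val1 libraries with a DOG1 locus had none for these regulators. LEC2, at 2.52, 1.62 and 0.883 FPKM in val1 val2 and 0 elsewhere, did not pass the filter, and EEL shared its loci with other genes.

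Chromatin and transcription factors whose mutants change dormancy were also followed. Of 9, 1 rose and 3 fell in val1 val2 against WT, beside 24.7% of all genes called higher and 34.2% lower, with a median of -0.27. ERF12, an ethylene response factor reported to repress DOG1, was the one that rose, from 1.01, 0.812 and 0.802 FPKM in WT to 18, 10.9 and 6.28 FPKM (difference 2.66, limma adjusted p = 1.92e-05). Its partner, the co-repressor TPL, fell by 0.95 (adjusted p = 0.00207), the histone demethylase LDL2 by 0.52 (adjusted p = 0.00341) and the elongation factor TFIIS by 0.46 (adjusted p = 0.00451).

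Among 19 germination, hormone and dormancy genes, 17 were in the fit, 12 rose and 4 fell in val1 val2 against WT, beside 24.7% of all genes called higher and 34.2% lower, with a median of 1.96. Of the 12 that rose, AGL67, NCED9 and SOM were listed at 0 outside val1 val2. They passed the filter only through it and so had to differ. MFT, a regulator of germination under ABA, went from 3.40, 3.40 and 2.76 FPKM in WT to 245, 178 and 88.0 FPKM (difference 5.24, limma adjusted p = 1.48e-07). AGL67, a MADS-domain factor, differed by 5.12 (adjusted p = 4.66e-09) and AIL5, an AP2-type factor, by 4.90 (adjusted p = 4.31e-08). DRM2, a dormancy-associated protein of buds and shoots, fell by 3.92 (adjusted p = 1.06e-05), from 879, 965 and 1103 FPKM in WT to 49.3, 39.2 and 132 FPKM. DOG1 and DRM2 thus moved in opposite directions in val1 val2. In the single mutants 0 rose and 1 fell in val1 (GA3OX1, a gibberellin synthesis gene, adjusted p = 0.0067), and 1 rose (GA3OX2) and 2 fell (GA2OX2 and GA3OX1) in val2. The shares of all genes called were 2.20% higher and 1.72% lower in val1 and 1.79% higher and 2.67% lower in val2.

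The remaining genes with a DOG1 domain, mostly TGA bZIP factors, were called in both directions. Of 12, 10 were in the fit, 3 rose and 3 fell in val1 val2 against WT, with a median of -0.02, beside 24.7% of all genes called higher and 34.2% lower. TGA4 fell by 1.39 (limma adjusted p = 0.000423) and TGA1 by 0.51 (adjusted p = 0.0104), while TGA7 differed by 0.93 (adjusted p = 0.016) and TGA3 by 0.73 (adjusted p = 0.018). TGA7 had no value in 3 libraries, 1 of them val1 val2 replicate 1. ZW2, a DOG1-domain gene without a bZIP region, was listed in val1 val2 only, at 2.61, 1.61 and 0.963 FPKM, and AT3G14880 in val1 val2 replicate 2 only, at 1.99 FPKM. Neither passed the filter.

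**Figure D4:**
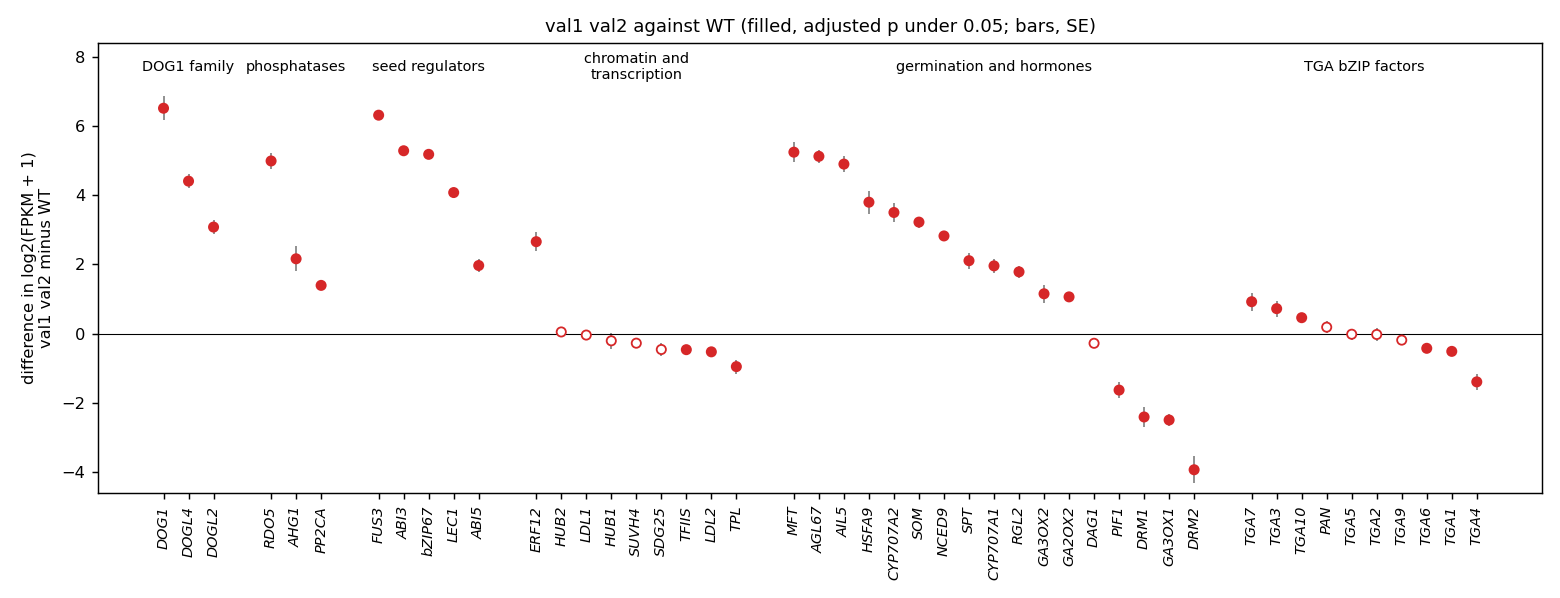
Difference in log2(FPKM + 1) between val1 val2 and WT, with its SE, for the family members and list genes in the fit. Filled points have a limma adjusted p under 0.05. The phosphatases and seed regulators all lie above 0 beside DOG1, DOGL4 and DOGL2, whereas chromatin factors and TGA factors lie on either side of 0. AHG1, RDO5, FUS3, ABI3, bZIP67 and LEC1, like DOGL4 and DOGL2, passed the filter only through val1 val2 and had to lie above 0.

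The neighbours of the family did not rise as it did. On chromosome 4, DOGL4, DOGL1, DOGL2 and DOGL3 lie in 1 block, which also holds AT4G18670 between DOGL1 and DOGL2. AT4G18670 fell from 30.2, 32.6 and 35.8 FPKM in WT to 3.67, 7.91 and 16.3 FPKM in val1 val2, by 1.91 (limma adjusted p = 0.00101). It was lowest where DOGL1 and DOGL2 were highest, in replicate 1. Its rise from replicate 1 to 3 was the commonest order, held by 31.4% of 16989 genes in the fit, and so is not particular to the block. AT4G18670 stood at 24.4 to 34.0 FPKM in val1 and 33.4 to 39.6 FPKM in val2.

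Outside the block, MRH1, a receptor-like kinase gene of root hairs next to DOGL4, fell by 1.47 (limma adjusted p = 6.99e-05), and AT4G18630 beyond it fell by 0.57 (adjusted p = 0.0154). At the other end, AT4G18692 had no locus and CIPK12, a protein kinase gene, differed by 0.87 (adjusted p = 2.85e-05), with 42.4, 42.6 and 48.0 FPKM in WT and 84.3, 88.5 and 73.3 FPKM in val1 val2. Beside DOG1 on chromosome 5, CIPK20 had no locus, and CIPK19 had one in 3 libraries, none of them val1 val2, at 0.394 to 0.498 FPKM. On the far side AT5G45840 fell by 0.61 (adjusted p = 0.0308), and AT5G45850 was listed in 2 val1 val2 libraries at 0.467 and 0.472 FPKM. So DOG1 at 49.8 to 138 FPKM lay between genes listed near or at 0.

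**Figure D5:**
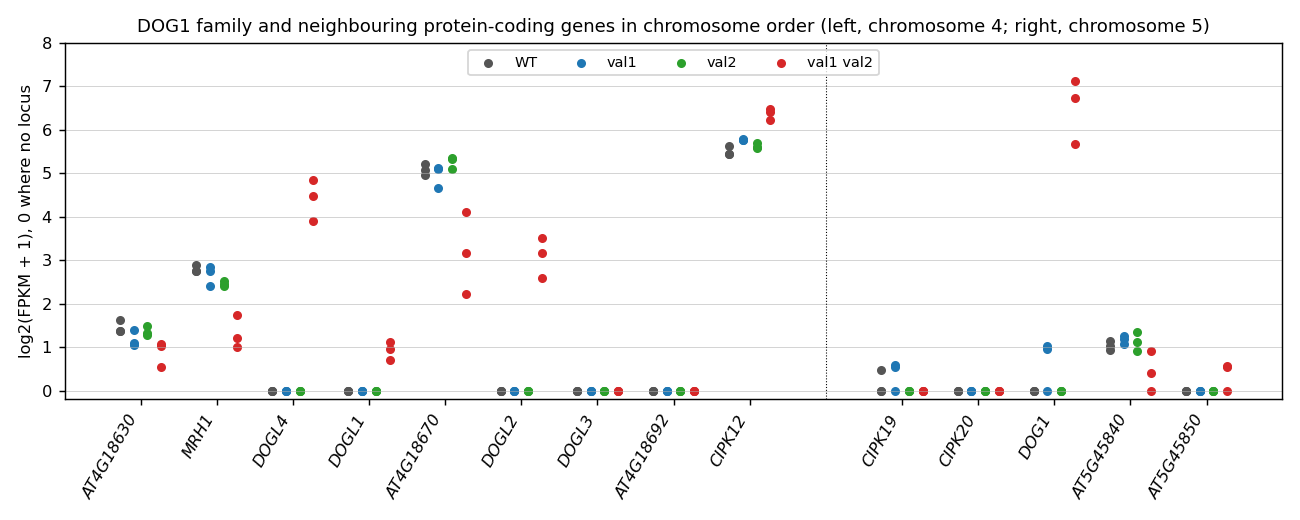
Level, as log2(FPKM + 1), of the family and its neighbouring protein-coding genes in chromosome order, with each library as a point and a gene without a locus at 0. In val1 val2 (red), DOGL4, DOGL2 and DOG1 stand above the other genotypes, AT4G18670 and MRH1 stand below them, CIPK12 stands above them, and DOGL3 is at 0.

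The genes most like each member over the 12 libraries were ranked by Pearson correlation of log2(FPKM + 1) among 16091 genes with a value in every library, as a description. The 3 val1 val2 libraries stand apart from the other 9, which sets most of each coefficient. The 5 genes most like DOG1 were TBL22 (r = 0.999), XIA (0.998), AT1G60970 (0.998), AT5G24130 (0.998) and ATS1 (0.997), and 197 genes exceeded 0.99. ATS1, a caleosin gene of seed oil bodies, was listed like DOG1 in val1 replicates 2 and 3 (0.711 and 1.38 FPKM) and not in val1 replicate 1, WT or val2, and reached 1023, 771 and 453 FPKM in val1 val2. All 5 of these genes had that same set of listed libraries.

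DOGL2 ranked 91 in likeness to DOG1 (r = 0.991) and DOGL4 ranked 512 (r = 0.982). The 5 genes most like DOGL2 were AT4G17920, AT1G54870, AT5G04380, AT1G22600 and AT2G27240, and 413 genes exceeded 0.99. Those most like DOGL4 were PAP25, AT4G12890, PNP-A, AT1G65481 and AT5G44567, with 238 above 0.99. All 5 of these DOGL4-like genes were listed in val1 val2 only and, as DOGL4 was, lowest in replicate 2. PNP-A, a natriuretic peptide-like gene, stood at 73.0, 34.3 and 58.3 FPKM in replicates 1, 2 and 3.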

How the data were processed

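RNA from 12 seedling libraries had been sequenced, and the authors deposited FPKM per assembled locus with confidence bounds, per the file headers. TopHat2 2.1.1, Cufflinks 2.2.1, Cuffdiff and MACS2 and the build TAIR10 stand in the submitters' processing notes, without their settings. Groups and replicate numbers were read from the titles of the samples; for val1 replicates 2 and 3 the file names give another number.

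Loci were assigned by position to RefSeq genes of TAIR10.1, whose nuclear chromosomes were taken to match TAIR10: a locus belonged to a gene when it covered 50% of the gene or lay 50% within it. A locus over several genes went to the one holding 75% of it and was otherwise left out, which left 3897 genes without a value in some library. A missing locus counted as 0, or as missing where the other 2 replicates reached 10 FPKM. limma 3.58.1 (R 4.3.3) was fitted to log2(FPKM + 1) of all 12 libraries as 4 group means, with a variance trend. Exact permutation tests used scipy 1.17.1. The fit was also run on simulated data, with changes added only to genes expressed in WT and an equal spread in all groups. That run does not cover genes at 0 in WT, such as the family.

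Named genes were all members, the nearest 2 protein-coding genes on each side and any within the chromosome 4 block, up to 4 called genes of each list with the largest change, and the 5 most correlated genes per member in the fit. A few others (LEC2, EEL, ZW2, AT3G14880, ABI5, NCED9, SOM, single-mutant hormone calls) were named after their values were seen. Members and lists were chosen with earlier results of these data known. Same-numbered libraries of different groups correlated at -0.047 to 0.066 in their deviations from group means, so the numbers were not taken as pairs. No sequences are shown.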

Additional observations from a re-analysis of the deposited data

Results flagged for a closer look

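For 3 members the difference of the libraries labelled val1 val2 from WT was not the sum of those of val1 and val2, with an interaction of 5.85 for DOG1, 3.08 for DOGL2 and 4.41 for DOGL4 on the log2(FPKM + 1) scale. The single-mutant arms are at or near 0 for all 3, where levels under the listing floor cannot be seen. The interactions repeat the difference of val1 val2 from val1 for DOG1 and from WT for DOGL2 and DOGL4, and are no separate test. A locus within the DOGL block but outside its protein-coding genes, over the annotated noncoding transcripts AT4G03005 and AT4G06835, was listed at 8.31 FPKM in val1 val2 replicate 2 (chr4:10268187-10269095). Its deposited bounds were 0 and 27.1 FPKM. WT replicate 1 had a locus there at 1.87 FPKM, with bounds of 0.787 and 2.96 FPKM, and the other 10 libraries had none.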

How the results depend on the processing

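The number of members called was 0 in val1 against WT, val2 against WT and val1 against val2, and 3 in val1 val2 against each other genotype and in the interaction. In those 4, the count was 4 (with DOGL1) without a filter and with FPKM as listed, and 2 with a filter of 5 FPKM. In the main fit, 24.7%, 25.6% and 25.1% of all genes were called higher in val1 val2 against WT, val1 and val2, and 21.3% in the interaction. Members that pass a filter through val1 val2 had to differ, so a steady count is no support. Leaving out 1 library in turn gave 1 to 3 called members in each of those 4 comparisons. The count of 1 came each time a val1 val2 library was left out, because DOGL2 and DOGL4 then no longer reached 1 FPKM in 3 libraries; with 1 FPKM asked in 2 libraries, an alternative added after the data were seen, 3 were called each time. Leaving out both libraries with an unbroken VAL1 locus, also added afterwards, gave 1 called member, DOG1, in val1 against WT and in val1 against val2. The val1 library left out was the only one of its group without a DOG1 locus, so that call is no support. With the replicate block, 3 members were called in val1 val2 against WT and 0 in val1 against WT, and the number of all genes called in val1 against WT went from 691 to 593. With only the libraries of the groups compared, no member passed the filter in val1 against WT, val2 against WT or val1 against val2, so those fits give no member value, and the interaction, which needs all 4 groups, was not run. No member changed direction under any setting run.

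The size of the val1 val2 change from WT followed the pseudocount, since WT is listed at 0. DOG1 ran from 4.25 to 9.81 over 28 alternatives, DOGL2 from 1.33 to 6.23 over 24 and DOGL4 from 2.34 to 7.66 over 25, with the highest adjusted p at 5.47e-05, 0.000227 and 5.87e-05. DOG1 in val1 against WT ran from 0.17 to 2.29 over 27 alternatives, with adjusted p from 0.0035 to 0.825, and was called in 1. Scaling to the median gene moved the median of all genes in val1 val2 against WT from -0.14 to -0.04. Depth limits DOGL1 and the val1 loci of DOG1, which rest on 11 to 28.0 implied fragments.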
